A study of Homo sapiens with 5 samples.

Results

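Translation initiation and elongation factors were followed in BT474, an established luminal breast cancer line with amplified HER2, where drug-tolerant cells derived with a HER2 inhibitor were set against untreated cells. The factors were every row of the deposited table whose symbol begins with EIF or EEF and a digit, with 1 matching row left out by the rule. This gave 63 rows and 62 genes of 18512, since EIF3C stands on 2 rows. Persister cells came from cultures at 75% confluence that were kept for 9 days with 2 µM lapatinib, which blocks the kinases HER2 and EGFR, in medium renewed every 3 days (3 libraries). Parental cells were cultured alongside in the same 0.01% DMSO without the drug (2 libraries). Without a briefly treated or a released group, effects of the drug, of growth arrest and of survival cannot be told apart. The submitters describe the libraries as biological replicates. The authors deposited 1 FPKM value per gene and group (fragments scaled to transcript length and to sequencing depth), so each level below is the authors' group value and carries no SD, and the depth of the libraries is unknown.

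Protein synthesis starts when eIF2 brings the initiator tRNA to the small ribosomal subunit, which eIF3, eIF1, eIF1A and eIF5 prepare for scanning. The cap of the mRNA is bound by eIF4E, which joins the scaffold eIF4G and the helicase eIF4A in the eIF4F complex, and the 4E-BPs hold eIF4E back from eIF4G until mTORC1 phosphorylates them. Once the subunits have joined, eEF1A delivers aminoacyl-tRNAs and eEF2 moves the ribosome along, and the kinase eEF2K, which mTORC1 signalling restrains, inactivates eEF2. HER2 feeds this system through PI3K, AKT and mTORC1, and these controls act largely on protein phosphorylation, which RNA levels do not show.

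Initiation factors were mostly lower in persister cells, with the cap-binding protein EIF4E, the eIF2B subunit EIF2B3 and the helicase EIF4A1 among the furthest. EIF5A and EIF4EBP1, the gene of an eIF4E inhibitor, were also far lower. The elongation factors EEF1A1, EEF1A2, EEF1G and EEF2 were higher. A gene was called when its q-value in the authors' deposited table was under 0.05. The authors' test covered 59 of the 62 genes, and of these 11 were called higher and 33 lower (18.6% and 55.9%), while 15 were not called. Over all 13617 tested genes, 69.9% were called, 30.9% as higher and 39.0% as lower. Among the 4857 tested genes with at least 10 FPKM in both groups, 19.6% were called higher and 53.6% lower, and the 44 factors of that level had 20.5% higher and 56.8% lower. The share of factors called was thus close to that of other abundant genes. With a q-value under 0.01, 11 factors were called higher and 32 lower, against 26.9% and 35.2% of all tested genes. Asking also for a difference of at least 0.5 left 1 higher and 17 lower, against 11.8% and 19.4% of all tested genes. Each difference is that of log2(FPKM + 1), persister minus parental. Their median was -0.26 over the tested factors, -0.04 over all tested genes and -0.22 over those of at least 10 FPKM.

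The summed FPKM of the table was 260213 in persister and 333324 in parental cells. Setting the sums equal would add 0.36 to the log2 difference of an abundant gene and would put the median of genes with at least 1 FPKM in both groups at 0.20, against -0.11 as deposited. With equal sums the 11 calls of higher kept their direction, and so did 29 of the 33 calls of lower, the exceptions being EIF3A, EIF3K, EIF4A3 and EEF1D. The median of the factors changed sign with equal sums, to 0.02. The 62 genes together made up 1.90% of the summed FPKM in persister and 1.69% in parental cells. In bulk RNA, fewer cells of a type and less RNA per cell cannot be told apart.

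**Figure D1:**
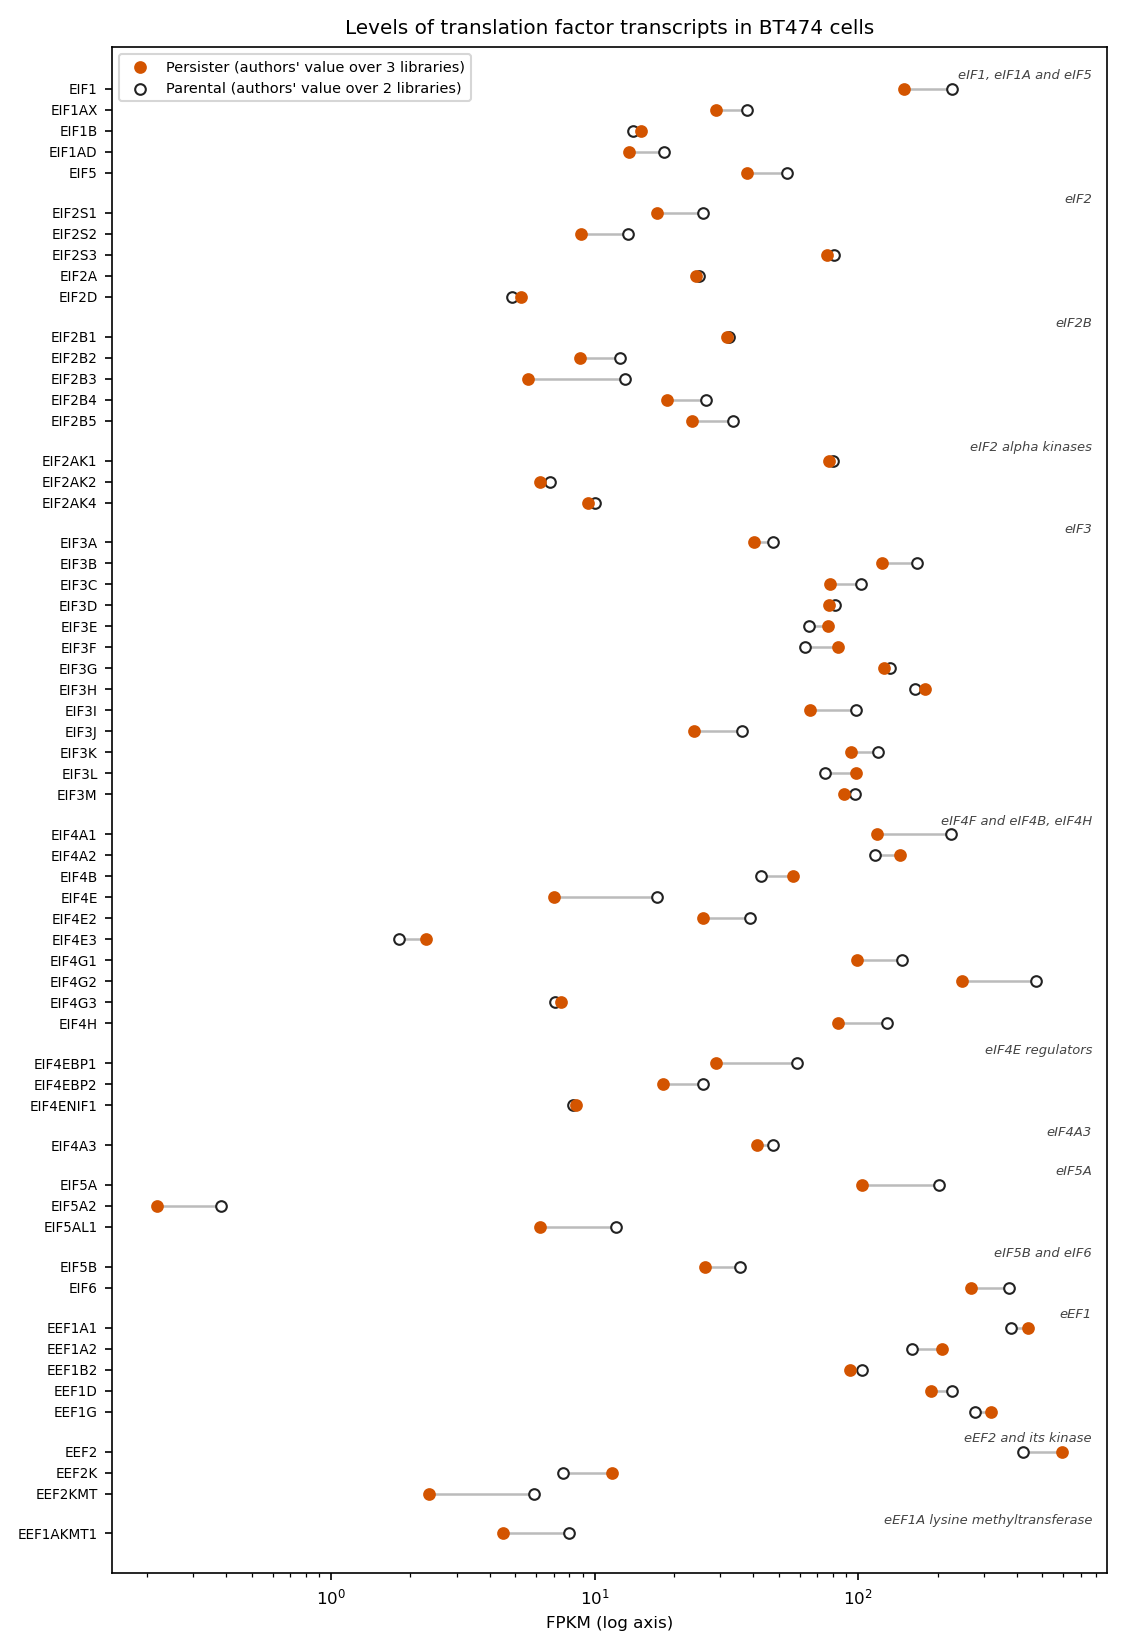
FPKM (log axis) of the 59 tested translation factor genes in persister (filled) and parental cells (open), grouped by complex, 1 value of the authors per group with no error available. EIF4E stands at 7.03 FPKM in persister and 17.2 FPKM in parental cells, while EEF2 stands at 592 and 421 FPKM.

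The group values matched the labelled cell type. The 5 epithelial markers (KRT8, KRT18, KRT19, EPCAM and CDH1) lay between 89.6 and 623 FPKM in persister and between 143 and 841 FPKM in parental cells. All of them were called lower in persister cells. The luminal markers GATA3 (43.3 against 14.1 FPKM) and ESR1 (18.2 against 12.4 FPKM) were called higher in persister cells. The luminal marker FOXA1 (92.5 against 107 FPKM) was called lower. The immune markers PTPRC and CD3E and the fibroblast markers COL1A2 and PDGFRB were at or below 0.00588 FPKM in both groups, although the collagen gene COL1A1 had 8.73 FPKM in persister and 13.4 FPKM in parental cells. The endothelial markers stayed low, PECAM1 at 0.00261 and 0.0145 FPKM and VWF at 0.0884 and 0.487 FPKM in persister and parental cells. The division markers were far lower in persister cells, MKI67 at 0.887 against 12.5 FPKM and TOP2A at 4.31 against 41.1 FPKM. The part of this growth difference in the results below was not tested.

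Transcripts of many translation factors begin with a C followed by a run of pyrimidines, a terminal oligopyrimidine (TOP) tract through which mTORC1 controls their translation. Promoter windows of RefSeq (GRCh38.p14) were found for 50 of the 62 genes. The 6 sequences below are shown because they belong to the factors on which the results turn, EEF1A1, EEF2, EIF4B and EIF4A2, which were higher in persister cells, and EIF4A1 and EIF4E, which were lower. Each runs on the gene's strand from 10 bases before the annotated start through 20 bases from it. Capitals mark a tract, defined as a C followed by at least 4 C or T and beginning within 5 bases of the annotated start.
EEF1A1 (chr6:73521013-73521042, minus strand): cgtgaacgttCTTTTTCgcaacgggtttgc
EEF2 (chr19:3985444-3985473, minus strand): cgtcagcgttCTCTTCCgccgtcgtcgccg
EIF4B (chr12:53006446-53006475, plus strand): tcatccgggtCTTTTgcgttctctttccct
EIF4A2 (chr3:186783567-186783596, plus strand): gcgccgctgtCTTTTCagtcgggcgctgag
EIF4A1 (chr17:7572815-7572844, plus strand): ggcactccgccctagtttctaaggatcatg
EIF4E (chr4:98929114-98929143, minus strand): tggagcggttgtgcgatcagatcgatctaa
In the first 4 the tract begins at the annotated start itself, and in the last 2 the window holds no tract. These 6 do not stand for all factors. EEF1G and EIF4E3 were called higher and had no tract. EIF3K was called lower and had a tract at the start, and EIF1, EIF4G1 and EIF4G2 were called lower and had one elsewhere in the window.

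Searched on the gene's strand, 21.1% of the 35116 promoter windows of the table held a tract, and 4.07% held one at the start itself, counted per window. Counted per tested gene, the shares were 29.3% and 7.10%. Of the tested factors, 47 of 59 (79.7%) had a window. That is under 80%, so as a check of the whole family the comparison is void, and the counts describe those 47 genes. A tract was found for 22 of them (46.8%), of which 6 were called higher and 10 lower with a median difference of -0.15. The 25 genes without one had 2 called higher and 17 lower, with a median of -0.44. A tract of at least 6 pyrimidines was found for 11 genes, of which 3 were called higher and 2 lower, with a median difference of -0.065. A narrower definition, chosen after seeing the data, asked that the tract begin at the annotated start. It held for 12 genes, of which EEF1A1, EEF2, EIF4A2, EIF4B and EIF3F were called higher, EIF3K was called lower (not with equal sums), and EIF2S3, EIF2A, EIF2D, EIF3D, EIF3M and EEF1B2 were not called, with a median of 0.03. The 10 genes whose tract began elsewhere in the window had 1 called higher, EEF2K, and 9 lower, with a median of -0.53. Over all tested genes with a window, 29.96% of those with a tract anywhere in the searched stretch were called higher and 39.9% lower, and 30.7% and 39.3% of those without one. At 10 FPKM or more in both groups the shares were 18.5% and 53.8% with a tract and 19.7% and 53.8% without. Among all 784 tested genes with a tract at the start, 29.97% were called higher and 39.4% lower, near the 30.5% and 39.5% without one. With at least 10 FPKM in both groups, 19.4% of genes with a tract at the start were called higher and 50.1% lower. Those without one had 19.3% and 54.2%. The medians over all tested genes with a window were -0.04 both for the 784 genes with a tract at the start and for the 10261 genes without one. At 10 FPKM or more in both groups these medians were -0.18 and -0.22. Annotated starts can differ from those used in these cells, and the table gives 1 value per gene whichever start was used.

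**Figure D2:**
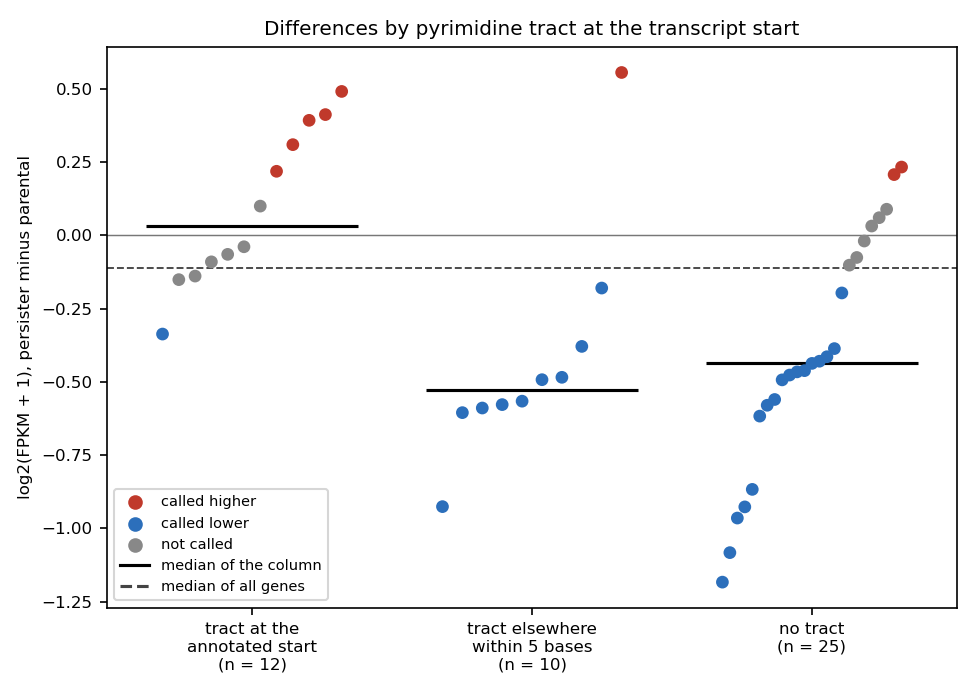
Difference in log2(FPKM + 1), persister minus parental, for the 47 tested factors with a promoter window, by where a pyrimidine tract begins. Points are genes, colours are the authors' calls and black lines are column medians. The dashed line is the median of all genes with at least 1 FPKM in both groups (-0.11). The 12 genes with a tract at the annotated start, a class chosen after seeing the data, centre on 0.03. The 10 with a tract elsewhere in the window centre on -0.53 and the 25 without a tract on -0.44. Over all tested genes with a window, the median was -0.04 both with and without a tract at the start.

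eIF4F, the complex that binds the cap and unwinds the leader of the mRNA, held the largest fall among the factors on the log2(FPKM + 1) scale, that of EIF4E. EIF4E fell to 7.03 FPKM in persister cells, against 17.2 FPKM in parental cells, a fold of 0.41 and a difference of -1.18. EIF4A1, the main helicase, fell to 118 FPKM in persister cells, against 225 FPKM in parental cells (difference -0.93). Its row also holds a transcript of SENP3, its neighbour, so the value is that of both genes. EIF4A2, a close paralog of EIF4A1, went the other way, with 143 FPKM in persister and 116 FPKM in parental cells (difference 0.31, q = 2.02e-05 in the authors' deposited table). The order of the helicases was thus turned round, with 0.82 EIF4A1 per EIF4A2 in persister cells and 1.94 in parental cells. EIF4A1 made up 45.1% of the summed FPKM of both in persister and 66.0% in parental cells.

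The scaffolds of eIF4F were lower as well. EIF4G1 fell to 98.5 FPKM in persister cells, against 146 FPKM in parental cells (difference -0.57), and EIF4G2, a related protein that lacks the eIF4E-binding site, to 248 FPKM against 471 FPKM (difference -0.93). EIF4G2 was the most abundant of all 62 transcripts in parental cells and stood at rank 5 in persister cells. EIF4G3, a paralog at a low level, was not called, at 7.42 FPKM in persister and 7.08 FPKM in parental cells. Because EIF4E fell further than its partner, EIF4G1 per EIF4E was 14.0 in persister and 8.49 in parental cells. These ratios are within a group and do not change with its scaling.

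Of the helicase cofactors, one rose and one fell. EIF4B, which stimulates eIF4A and is a substrate of kinases below mTORC1 and ERK, rose to 56.4 FPKM in persister cells, against 42.7 FPKM in parental cells (difference 0.39). EIF4H, which acts on eIF4A in a similar way, fell to 83.5 FPKM against 129 FPKM (difference -0.62). The other cap-binding proteins also differed in direction. EIF4E2, a cap-binding paralog of EIF4E, fell to 25.7 FPKM in persister cells, against 38.9 FPKM in parental cells, and EIF4E3 rose to 2.30 FPKM against 1.804 FPKM (q = 0.00862 in the authors' deposited table). EIF4E1B was not covered by the test, at 0.0105 and 0.0153 FPKM in persister and parental cells. In all, 3 of the 10 tested genes of this group were called higher (30%) and 6 lower (60%), and these directions were the same with equal sums. Over all tested genes the shares were 30.9% and 39.0%, and over those of at least 10 FPKM in both groups 19.6% and 53.6%.

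The 4E-BPs, the mTORC1-controlled inhibitors of eIF4E, were lower too. EIF4EBP1 fell to 28.9 FPKM in persister cells, against 58.7 FPKM in parental cells, a fold of 0.49. EIF4EBP2 fell less, to 18.2 FPKM against 25.8 FPKM (fold 0.70). Added together they had 47.0 FPKM in persister and 84.5 FPKM in parental cells. EIF4E fell further than this sum, so that 4E-BP transcripts per EIF4E transcript were 6.69 in persister and 4.90 in parental cells. EIF4EBP2 gave the larger part of that shift, with 2.59 and 1.499 per EIF4E in persister and parental cells, against 4.10 and 3.41 for EIF4EBP1. EIF4EBP3 has no row of its own. Its transcript is listed with ANKHD1, whose row had no estimate in the authors' comparison (25.1 and 21.7 FPKM in persister and parental cells), so nothing can be read for it. EIF4ENIF1, the carrier of eIF4E into the nucleus, was not called, at 8.48 and 8.28 FPKM.

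**Figure D3:**
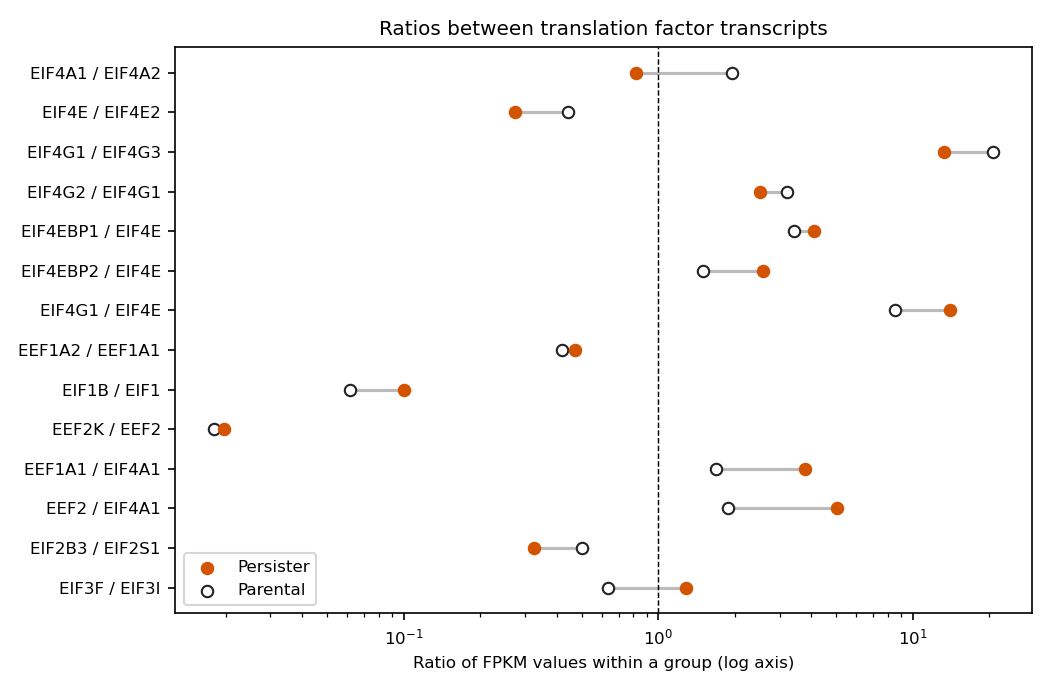
Ratios of FPKM values (log axis) between 14 pairs of translation factor transcripts within persister (filled) and within parental cells (open), chosen with the values known; each ratio rests on 1 value per gene and group. EIF4A1 per EIF4A2 lies at 0.82 in persister and 1.94 in parental cells, on either side of the dashed line at 1.

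eIF2, which carries the initiator tRNA, was lower in 2 of its 3 subunits. With EIF2A and EIF2D, 2 of 5 genes were called lower (40%). That share was 39.0% over all tested genes and 53.6% over those of at least 10 FPKM in both groups. EIF2S1, the alpha subunit whose phosphorylation slows initiation, fell to 17.2 FPKM in persister cells, against 25.8 FPKM in parental cells (difference -0.56). EIF2S2, the beta subunit, fell to 8.87 FPKM against 13.4 FPKM (difference -0.55). EIF2S3, the gamma subunit that binds the tRNA and GTP, was not called, at 76.0 FPKM in persister and 80.9 FPKM in parental cells. EIF2A and EIF2D, which can bring tRNAs to the ribosome without eIF2, were not called either, EIF2A at 24.3 and 25.0 FPKM and EIF2D at 5.26 and 4.84 FPKM in persister and parental cells.

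eIF2B, the exchange factor that reloads eIF2 with GTP, was lower in 4 of its 5 subunits (80%). The share called lower was 39.0% over all tested genes and 53.6% over those of at least 10 FPKM in both groups. EIF2B3, the gamma subunit, fell to 5.60 FPKM in persister cells, against 12.98 FPKM in parental cells, with a fold of 0.43. The other 3 fell by similar amounts: EIF2B2 to 8.79 FPKM against 12.5 FPKM, EIF2B4 to 18.9 FPKM against 26.4 FPKM, and EIF2B5, the catalytic epsilon subunit, to 23.4 FPKM against 33.4 FPKM. EIF2B1, the alpha subunit, was not called, at 31.8 FPKM in persister and 32.3 FPKM in parental cells. Within the complex EIF2B1 had the highest level in persister cells and EIF2B5 in parental cells; whether these neighbours differ beyond the spread of libraries is unknown.

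The eIF2 alpha kinases were not called. The haem-regulated kinase EIF2AK1 had 77.7 FPKM in persister and 80.4 FPKM in parental cells (q = 0.532 in the authors' deposited table). EIF2AK2, the kinase that senses double-stranded RNA, had 6.21 and 6.74 FPKM, and EIF2AK4, which senses uncharged tRNA, had 9.46 and 10.02 FPKM in persister and parental cells. The median difference of these 3 kinases was -0.08 as deposited and 0.25 with equal sums. A missed threshold does not show that these levels were the same.

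Start codon selection rests on eIF1, eIF1A and eIF5. EIF1 fell to 149 FPKM in persister cells, against 227 FPKM in parental cells (difference -0.61), while its paralog EIF1B was not called, at 14.9 and 14.0 FPKM. EIF1B per EIF1 was 0.101 in persister and 0.0617 in parental cells. EIF1AX fell to 28.8 FPKM in persister cells, against 37.9 FPKM in parental cells. EIF5, which triggers GTP hydrolysis on eIF2, fell to 37.9 FPKM against 53.7 FPKM (difference -0.49), and EIF1AD, a protein with an eIF1A-like domain, to 13.5 FPKM against 18.3 FPKM. EIF1AY was not covered by the authors' test.

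eIF3, the largest initiation factor, moved both ways. Of its 13 genes, 3 were called higher (23.1%) and 6 lower (46.2%), and 4 were not called. These shares were near the 19.6% and 53.6% of tested genes of at least 10 FPKM in both groups. The eIF3 median was -0.14 as deposited and 0.21 with equal sums. EIF3F rose to 83.9 FPKM in persister cells, against 62.8 FPKM in parental cells (difference 0.41, q = 9e-08 in the authors' deposited table). EIF3L rose to 97.7 FPKM against 75.0 FPKM (difference 0.38), and EIF3E, known in mice as an insertion site of mammary tumour virus, to 76.8 FPKM against 65.3 FPKM (difference 0.23). The subunits that fell furthest were EIF3J, a loosely bound one, at 23.7 FPKM in persister and 36.2 FPKM in parental cells (difference -0.59), and EIF3I, at 65.5 and 98.4 FPKM (difference -0.58).

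The other eIF3 subunits that were called lower fell by less than EIF3J and EIF3I. EIF3B fell to 123 FPKM in persister cells, against 166 FPKM in parental cells (difference -0.43). EIF3C stood on 2 rows that list the same transcripts, those of EIF3C and its near-identical copy EIF3CL, at 78.3 and 77.4 FPKM in persister and 102 and 99.9 FPKM in parental cells, so the copies cannot be told apart. EIF3K was called lower, at 93.7 FPKM in persister and 119 FPKM in parental cells, and EIF3A, the largest subunit, at 40.1 and 47.6 FPKM, but with equal sums their differences were 0.02 and 0.11. EIF3D, EIF3G, EIF3H and EIF3M were not called. Their levels were 77.7 and 81.4 FPKM for EIF3D, 125 and 132 FPKM for EIF3G, 179 and 164 FPKM for EIF3H, and 88.4 and 97.5 FPKM for EIF3M in persister and parental cells. The ratio of EIF3F to EIF3I, free of scaling, was 1.28 in persister and 0.64 in parental cells. The highest eIF3 transcript exceeded the lowest 7.53 times in persister and 4.59 times in parental cells, so the spread of the subunits was wider in persister cells.

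**Figure D4:**
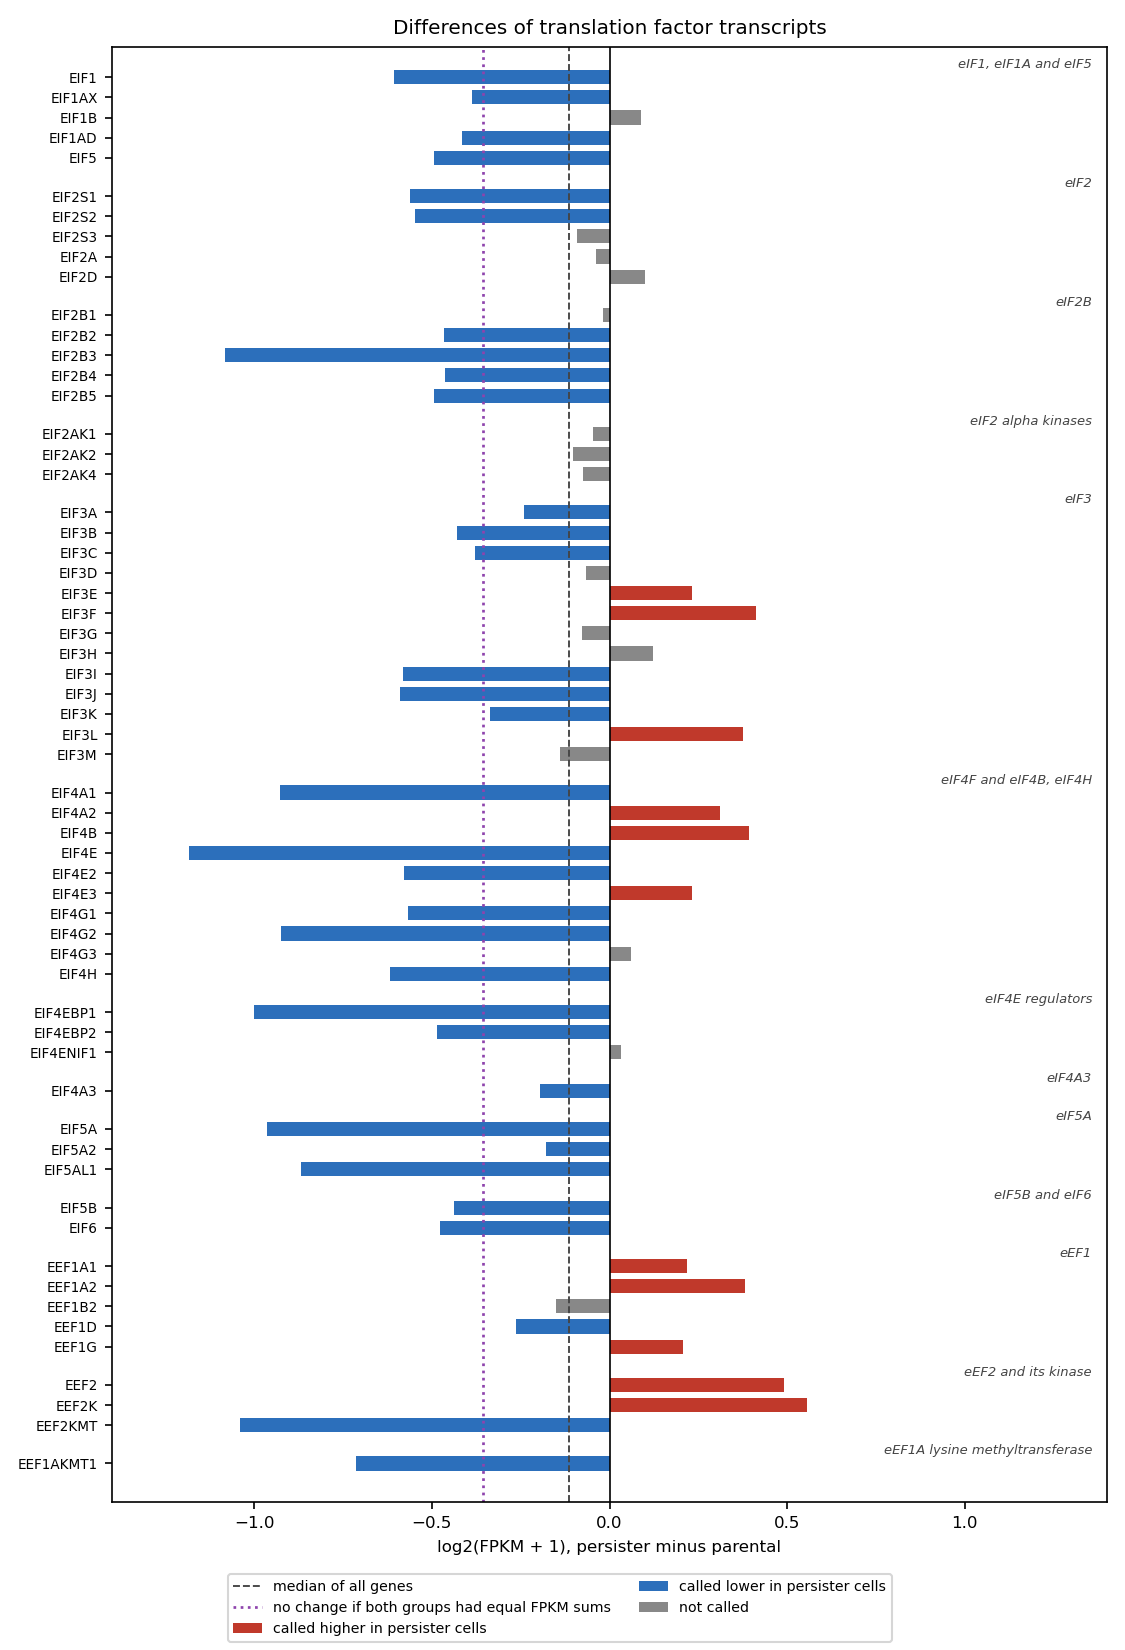
Difference in log2(FPKM + 1), persister minus parental, of the 59 tested factors, grouped by complex and coloured by the authors' calls. The dashed line is the median of all genes with at least 1 FPKM in both groups (-0.11). The dotted line marks no change for an abundant gene if both groups had equal FPKM sums. EIF3A, EIF3K, EIF4A3 and EEF1D, which were called lower, lie to the right of the dotted line and would be above 0 with equal sums, while EIF5A2, also to its right, is too low for the line to apply and would stay below 0 (-0.11).

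The late initiation factors were lower. EIF5B, the GTPase that joins the ribosomal subunits, fell to 26.1 FPKM in persister cells, against 35.7 FPKM in parental cells (difference -0.44). EIF6, which keeps the large subunit from joining early and helps in its maturation, fell to 269 FPKM against 374 FPKM (difference -0.48). EIF4A3, a helicase of the exon junction complex that takes no part in eIF4F, was called lower at 41.2 FPKM in persister and 47.3 FPKM in parental cells (q = 0.0128 in the authors' deposited table), and stood at 0.15 with equal sums.

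EIF5A, the factor that carries the amino acid hypusine and helps ribosomes through difficult stretches and termination, fell to 104 FPKM in persister cells, against 203 FPKM in parental cells (fold 0.51). EIF5AL1, a near-identical copy, showed the same fold of 0.51 at 6.18 and 12.1 FPKM. Reads of EIF5A could enter its value, which was not tested, so its call may not be separate from that of EIF5A. EIF5A2, a paralog amplified in some tumours, was called lower at a trace level, 0.219 FPKM in persister and 0.381 FPKM in parental cells. DHPS and DOHH, the enzymes that make hypusine on EIF5A, were lower too. DHPS fell to 24.7 FPKM in persister cells, against 43.0 FPKM in parental cells, and DOHH to 7.11 FPKM against 11.1 FPKM.

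The elongation factors proper were mostly called higher. EEF2, the translocase, rose to 592 FPKM in persister cells, against 421 FPKM in parental cells (fold 1.41, q = 6.75e-13 in the authors' deposited table), and was the most abundant factor transcript in persister cells. EEF1A1, which brings aminoacyl-tRNAs to the ribosome, rose to 442 FPKM against 379.9 FPKM (fold 1.16, q = 0.00155 in the authors' deposited table). Reads of its many processed pseudogenes could enter that value. EEF1A2, the paralog known from muscle and neurons and expressed in some breast tumours, rose to 208 FPKM in persister cells, against 159 FPKM in parental cells (fold 1.303). The paralogs moved together, with 0.47 EEF1A2 per EEF1A1 in persister and 0.42 in parental cells.

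The exchange factor of eEF1A, made of EEF1B2, EEF1D and EEF1G, moved both ways. EEF1G, its structural subunit, rose to 319 FPKM in persister cells, against 276 FPKM in parental cells (fold 1.16). EEF1B2 was not called, at 93.1 and 103 FPKM in persister and parental cells (q = 0.123 in the authors' deposited table). EEF1D was called lower at 189 FPKM in persister and 227 FPKM in parental cells, but its difference was 0.09 with equal sums. EEF1E1, which belongs to the multi-synthetase complex and not to eEF1 itself, had no estimate in the authors' comparison, and its row (81.7 and 131 FPKM) also holds transcripts of BLOC1S5 and TXNDC5. Of the 6 elongation factors EEF1A1, EEF1A2, EEF1B2, EEF1D, EEF1G and EEF2, 4 were called higher (66.7%) and 1 lower (16.7%). Over all tested genes the shares were 30.9% and 39.0%, and over those of at least 10 FPKM in both groups 19.6% and 53.6%. Set against the helicase EIF4A1, EEF2 stood at 5.03 in persister and 1.87 in parental cells. This pair was chosen with the values known, and the EIF4A1 row also holds a transcript of SENP3. EIF4A1 was among the furthest falls while its paralog EIF4A2 was called higher, so the ratio does not stand for initiation factors in general.

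EEF2K, the calcium-dependent kinase that inactivates eEF2 and is restrained by mTORC1 signalling, had the largest rise among the factors. It stood at 11.6 FPKM in persister and 7.60 FPKM in parental cells (fold 1.53, difference 0.56, q = 6.92e-15 in the authors' deposited table). Since its substrate rose as well, EEF2K per EEF2 was 0.0197 in persister and 0.0181 in parental cells. Both methyltransferases of elongation factors that the rule picked, EEF2KMT and EEF1AKMT1, were lower. EEF2KMT, which methylates eEF2, fell to 2.36 FPKM in persister cells, against 5.90 FPKM in parental cells (fold 0.40), and EEF1AKMT1, which methylates eEF1A, to 4.50 FPKM against 8.02 FPKM (fold 0.56).

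Genes of translation outside the rule were counted by 7 lists, in which 22 of the 31 calls of lower and all 13 calls of higher kept their direction with equal sums. Of the 62 tested genes of these lists, 21.0% were called higher and 50% lower, beside 30.9% and 39.0% over all tested genes and 19.6% and 53.6% over those of at least 10 FPKM in both groups. Among termination, recycling and rescue factors, 1 of 8 was called higher and 6 lower, with a median of -0.45. ABCE1, which splits terminated ribosomes, fell to 17.1 FPKM in persister cells, against 29.9 FPKM in parental cells. GSPT2, a release factor GTPase, fell to 2.06 FPKM against 3.35 FPKM, and DENR, a recycling and reinitiation factor, to 33.5 FPKM against 46.7 FPKM. Among poly(A)-binding proteins and partners, 3 of 6 tested genes were called higher and 1 lower, with a median of 0.13. PABPC1, the main binder of the poly(A) tail, rose to 428 FPKM in persister cells, against 375 FPKM in parental cells, and PABPC4 to 72.6 FPKM against 60.9 FPKM. PABPC3, also called higher at 96.8 against 85.0 FPKM, had nearly the same difference as PABPC1 (0.18 and 0.19). Whether reads of PABPC1 entered its value was not tested. PAIP1, a partner of PABPC1, was called lower at 36.5 and 44.2 FPKM in persister and parental cells, and stood at 0.08 with equal sums.

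Of 12 mitochondrial translation factors, 2 were called higher (16.7%) and 7 lower (58.3%), shares near those of genes of at least 10 FPKM, with a median of -0.29 (0.02 with equal sums). ICT1, a rescue factor of the mitochondrial ribosome, fell to 19.0 FPKM in persister cells, against 38.7 FPKM in parental cells. The elongation factor GFM1 fell to 25.3 FPKM against 41.2 FPKM, and the recycling factor GFM2 to 9.41 FPKM against 14.0 FPKM. Of the 9 enzymes that modify EIF5A and eEF2, 0 were called higher and 5 lower, with a median of -0.22 (0.09 with equal sums). Beside DHPS and DOHH, DPH6, of the diphthamide pathway on eEF2, fell to 2.72 FPKM in persister cells, against 3.56 FPKM in parental cells.

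The list of mTORC1 parts, eIF4E kinases and an eIF4A inhibitor, which also holds the S6 kinase substrate RPS6, moved both ways. Of its 12 genes, 4 were called higher (33.3%) and 5 lower (41.7%), with a median of -0.07 (0.27 with equal sums). Over all tested genes the shares were 30.9% and 39.0%, and over those of at least 10 FPKM in both groups 19.6% and 53.6%. DEPTOR, an inhibitor within the mTOR complexes, rose to 42.8 FPKM in persister cells, against 21.2 FPKM in parental cells, and MKNK1, a kinase of eIF4E, to 17.5 FPKM against 10.8 FPKM. RPS6, a protein of the small ribosomal subunit, was among the 4, at 473 FPKM in persister and 405 FPKM in parental cells. RPS6KB2, an S6 kinase, fell to 25.9 FPKM in persister cells, against 54.6 FPKM in parental cells. Among eIF2 phosphatase subunits and GCN2 cofactors, 2 of 8 were called higher (25%) and 4 lower (50%), with a median of -0.12 (0.22 with equal sums). The stress-induced subunit PPP1R15A rose to 20.2 FPKM in persister cells, against 11.4 FPKM in parental cells, while the catalytic subunits PPP1CA and PPP1CC fell, to 112 FPKM against 214 FPKM and to 60.1 FPKM against 106 FPKM. Among genes for selenocysteine incorporation, 1 of 7 was called higher and 3 lower, with a median of -0.05 (0.13 with equal sums). SEPSECS, which makes the selenocysteine on its tRNA, rose to 5.44 FPKM in persister cells, against 2.01 FPKM in parental cells. The specialised elongation factor EEFSEC fell to 5.07 FPKM against 7.97 FPKM, and SEPHS2, which supplies selenophosphate, to 62.7 FPKM against 99.2 FPKM.

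**Figure D5:**
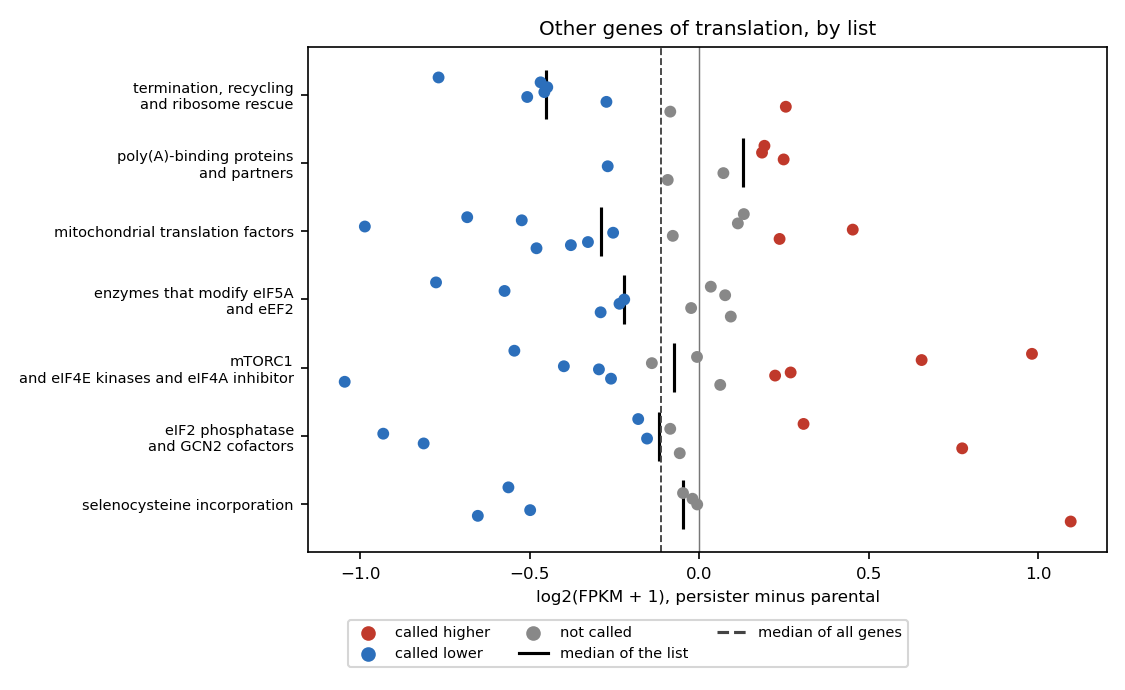
Difference in log2(FPKM + 1), persister minus parental, of the tested genes of 7 further translation lists. Points are genes coloured by the authors' calls, spread vertically for legibility, and black bars are list medians. The dashed line is the median of all genes with at least 1 FPKM in both groups (-0.11). The termination and rescue list centres on -0.45 and the poly(A)-binding list on 0.13.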

How the data were processed

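Polyadenylated RNA of 3 persister and 2 parental BT474 libraries was sequenced without keeping strand, per the labels' protocols, so reads of overlapping genes are mixed. Cuffdiff 2.0.2 with Cufflinks, TopHat2 2.0.6, CASAVA 1.8 and the genome build hg18 are listed in the submitters' processing notes, with no settings. The authors deposited 1 FPKM value per gene and group, a q-value (adjusted p-value) of their comparison and a fold change, per the file headers. With no values per library, no SD, interval or test of replicates could be made, and the authors' q-value under 0.05 served as the call, among genes with a q-value below 1. Calls and medians were taken over the whole table (18803 rows, 18512 genes, the row with the higher mean where a symbol recurred). A fold listed as 1 beside FPKM values that differed by over 0.6% was taken as no estimate. Differences use a pseudocount of 1, which understates changes of low genes. The members, complexes and lists were chosen with earlier results of these data known. Named genes were every member and, per list, the 3 called genes with the largest difference, and also RPS6 and PABPC3. EEF1AKMT1 was given a group after the file was seen. The search for tracts and the counts were tested on simulated data. Python 3.11.15, pandas 2.3.3 and matplotlib 3.10.9 were used. Alternatives were another pseudocount, q-value, size of difference, filter, scaling and tract definition.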

Additional observations from a re-analysis of the deposited data

How the results depend on the processing

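No paired analysis was possible because the table holds 1 value per group, so neither a block of replicate numbers nor leaving out a library could be run, and what 1 library decides is unknown. Depth is unknown as well. With a q-value under 0.01, 11 members were called higher and 32 lower. Asking also for a difference of at least 0.5 left 1 member higher and 17 lower. With equal FPKM sums the called differences of EIF3A, EIF3K, EIF4A3 and EEF1D were 0.108, 0.0169, 0.153 and 0.0912, above 0, by construction of that scaling. The medians were then 0.0169 for all members, -0.0792 for the eIF1, eIF1A and eIF5 group, 0.26 for eIF2 with EIF2A and EIF2D, -0.14 for eIF2B, 0.25 for the eIF2 alpha kinases, 0.21 for eIF3, -0.22 for eIF4F with eIF4B and eIF4H, -0.14 for the eIF4E regulators, 0.15 for eIF4A3, -0.55 for eIF5A, -0.11 for eIF5B and eIF6, 0.56 for eEF1, 0.85 for eEF2 with its kinase and EEF2KMT and -0.41 for EEF1AKMT1. Relative to the median of all genes with at least 1 FPKM in both groups (-0.11) they were -0.15, -0.30, 0.0227, -0.35, 0.0376, -0.0259, -0.46, -0.37, -0.0835, -0.75, -0.34, 0.32, 0.60 and -0.60 in the same order. As deposited, the medians of the eIF2 group (-0.09) and of the eIF2 alpha kinases (-0.08) lay above that median. Both lay below the -0.04 of all tested genes. A pseudocount of 0.1 put EEF1AKMT1 at -0.82 and moved no other group median by 0.1 or more. Without the near-identical copy EIF5AL1 the eIF5A median was -0.57. No Argonaute gene stood under an older EIF2C symbol, so that planned exclusion had nothing to remove. The share of members with a pyrimidine tract, 46.8%, was 23.4% with at least 6 pyrimidines and 25.5% with the tract at the start itself. The median difference of members with a tract was 0.21 with equal sums and 0.0304 with the tract at the start itself, and that of members without one was -0.0916 with equal sums.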
